A study of Homo sapiens with 6 samples.

Results

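The genes described here are 10 hosts of small nucleolar RNAs (snoRNAs), followed in ribosome footprints of WPMY-1. This human line of immortalised myofibroblasts comes from the stroma of the prostate. The 10 genes were found by Ensembl gene ID in a count table of 62492 features, of which 20515 had a count in the libraries used, and each ID matched 1 feature. The protein-coding hosts are NOP56 (ENSG00000101361) and NOP58 (ENSG00000055044). The noncoding hosts are SNHG20 (ENSG00000234912), GAS5 (ENSG00000234741), SNHG1 (ENSG00000255717), SNHG5 (ENSG00000203875), SNHG6 (ENSG00000245910), SNHG8 (ENSG00000269893), SNHG12 (ENSG00000197989) and ZFAS1 (ENSG00000177410). The symbols came with the list of IDs, and neither the count table nor the RefSeq table used below pairs Ensembl IDs with symbols. The list was proposed with results of the same table in view: NOP56 and SNHG20, at least, can be regarded as chosen by their share of counts, already known to be the largest, and which values bore on the other hosts is not recorded. Levels are therefore given as a description. Both groups are WPMY-1 cells carrying a short hairpin RNA. The sh61A group, labelled TRMT61A knockdown, had 3 libraries with a hairpin that targets TRMT61A. This protein is the catalytic part of the enzyme that methylates adenosine in transfer RNA. The shcontrol group, labelled TRMT61A wildtype, had 3 libraries with a control hairpin. The study used 1 cell line, and the labels do not say how many hairpins or clones stand behind a group, or whether separate cultures stand behind the libraries of a group. Every p-value below is thus set against library-to-library spread that may be technical only. Neither the level of TRMT61A nor the stromal markers of the line were checked, because the features could not be paired with symbols.

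snoRNAs are short nuclear RNAs that guide chemical modification of other RNAs. Box C/D snoRNAs guide methylation of ribose and box H/ACA snoRNAs guide the conversion of uridine to pseudouridine, mostly in ribosomal RNA, while the related scaRNAs act on spliceosomal RNAs in Cajal bodies. Most human snoRNAs lie in introns of a host gene and are trimmed out of the excised intron after splicing. Some hosts encode proteins of the ribosome and nucleolus, and others, named SNHG for snoRNA host gene, have a spliced RNA with little coding capacity. NOP56 and NOP58 are related proteins that sit together in every box C/D particle, and each of their genes also carries snoRNAs in its introns.

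A count in this table is the number of reads assigned to a gene ID, and it does not show where in the gene the reads lie. By RefSeq (GRCh38.p14, matched by symbol for 10 of 10), the spans of the 10 hosts enclose 43 annotated small RNAs, which are 60 to 187 bases long. Among them are 33 box C/D snoRNAs and 6 box H/ACA snoRNAs by symbol. GAS5 encloses 11, of which SNORA103 is the single H/ACA member, and SNHG1 encloses 9. NOP56 encloses SNORD110, SNORD86, SNORD56, SNORD57, SNORA51 and the microRNA MIR1292, and together these 6 cover 8.71% of its span. SNHG20 encloses SCARNA16 and the microRNA MIR6516. NOP58 encloses 4 box C/D snoRNAs that cover 0.947% of a span lengthened by introns. SNHG12 encloses SNORD99 and 3 H/ACA snoRNAs, ZFAS1 the 3 RNAs of the SNORD12 group, SNHG5 SNORD50A and SNORD50B, SNHG6 SNORD87, and SNHG8 SNORA24. The spans of 4 hosts also overlap other genes, SEC14L1 at SNHG20, ZBTB37 and GAS5-AS1 at GAS5, MCMDC2 at SNHG6 and TRNAU1AP at SNHG12. Whether counting used strand is not given in the sources used here, so reads of such neighbours cannot be told apart from those of the host.

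NOP56 and SNHG20 are the 2 of the 10 hosts that enclose a microRNA. As these hosts can be regarded as chosen by their counts, a link between counts and microRNAs was not tested. The mature sequences are shown to set their size beside the fragments of 25 to 35 nucleotides that were selected per the labels' protocols. The annotated hairpins of MIR1292 and MIR6516 are 66 and 81 bases long. The mature sequences are 20, 22, 22 and 25 nucleotides long, so all but hsa-miR-1292-5p are shorter than that range. They are from RefSeq (GRCh38.p14, plus strand), written 5′ to 3′ with the seed, bases 2 to 8, in capitals.
hsa-miR-1292-5p, in NOP56, chr20:2652779-2652803: uGGGAACGgguuccggcagacgcug
hsa-miR-1292-3p, in NOP56, chr20:2652819-2652838: uCGCGCCCcggcucccguuc
hsa-miR-6516-5p, in SNHG20, chr17:77089428-77089449: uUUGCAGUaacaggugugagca
hsa-miR-6516-3p, in SNHG20, chr17:77089469-77089490: aUCAUGUAugauacugcaaaca
The 4 seeds differ from one another. Both arms of MIR6516 lie inside the annotated SCARNA16, and neither arm of MIR1292 lies inside a snoRNA of NOP56. Whether they are exonic or intronic was not analysed here. How many reads of either gene come from these stretches cannot be read from a count per gene.

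Total counts were 12704354 to 17752247 in the sh61A libraries and 6771455 to 8008896 in the shcontrol libraries, so the sh61A libraries were deeper throughout. The 10 hosts together took 53.0%, 47.6% and 51.3% of all counts in the sh61A libraries, against 42.9%, 33.7% and 30.8% in the shcontrol libraries. Every sh61A library lay above every shcontrol library, and the sum was not tested. The mean share was 50.7% ± 2.7 in sh61A and 35.8% ± 6.3 in shcontrol (SD, n = 3 each). NOP56 and SNHG20 alone made up 49.3% ± 2.8 in sh61A and 35.1% ± 6.5 in shcontrol, and the other 8 hosts made up 1.40% ± 0.08 in sh61A and 0.729% ± 0.156 in shcontrol (SD, n = 3 each). GAS5 was most of that smaller sum, with 1.07% ± 0.04 in sh61A and 0.442% ± 0.097 in shcontrol (SD, n = 3 each). Of the 10 hosts, 5 were among the 50 most abundant features of the 6 libraries: NOP56, SNHG20, GAS5, SNHG1 and SNHG12. A Wilson 95% interval of any of these shares spanned no more than 0.0712 percentage points. These intervals hold counting error within a library only. They may be too narrow even for that, because no molecular identifier is described and PCR copies may be counted repeatedly.

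**Figure D1:**
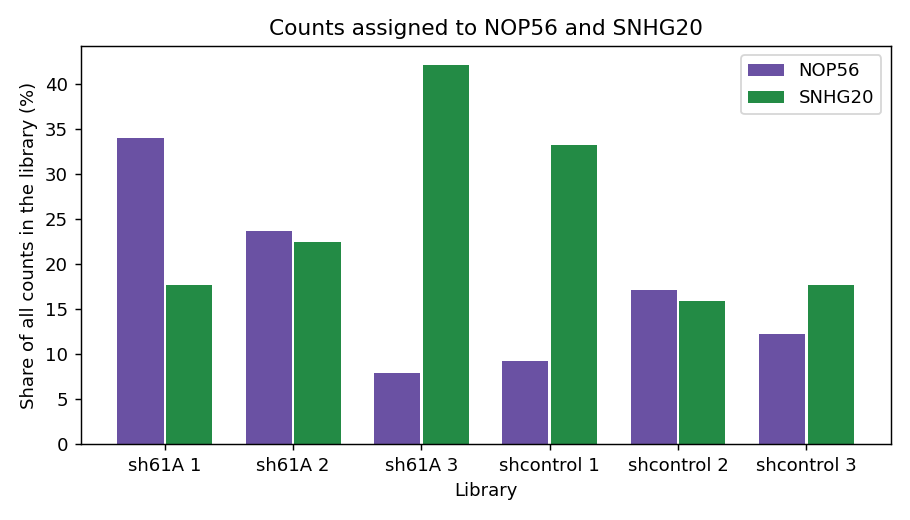
Share of all counts in each library (vertical axis, percent) assigned to NOP56 and to SNHG20, for the 3 sh61A and the 3 shcontrol libraries (horizontal axis). NOP56 took 33.9% of sh61A library 1 and 7.93% of sh61A library 3, where SNHG20 took 42.1%.

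NOP56 had 6019066, 3148695 and 1007066 counts in the sh61A libraries, against 738204, 1157542 and 897310 in the shcontrol libraries. It took 33.9%, 23.7% and 7.93% of the sh61A counts, against 9.22%, 17.1% and 12.2% of the shcontrol counts. By share, 1 sh61A library lay below every shcontrol library and the other 2 lay above them all, so the groups overlapped. SNHG20, the host of SCARNA16, had 3138813, 2985243 and 5344373 counts in the sh61A libraries, against 2653419, 1076473 and 1295589 in the shcontrol libraries. Its shares were 17.7%, 22.5% and 42.1% in sh61A, against 33.1%, 15.9% and 17.7% in shcontrol. These groups overlapped too, since shcontrol library 1 exceeded 2 of the 3 sh61A libraries. In every library these genes held the first and the second rank among all features, and SNHG20 was first in sh61A library 3 and in shcontrol libraries 1 and 3. The ratio of NOP56 to SNHG20 counts was 1.92, 1.05 and 0.188 in the sh61A libraries, against 0.278, 1.08 and 0.693 in the shcontrol libraries. It therefore varied as widely within a group as between groups.

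NOP58 had far fewer counts than NOP56 and SNHG20. It had 452, 304 and 533 counts in the sh61A libraries, against 399, 360 and 402 in the shcontrol libraries. By counts it was not the lowest host throughout. SNHG8 had 548, 563 and 415 counts in the sh61A libraries, against 206, 241 and 232 in the shcontrol libraries. Levels of different genes were compared as CPM (counts scaled to a common library total) with TMM factors (a factor per library from edgeR, set so that most features agree), per kilobase of RefSeq span. A span includes introns, and the region the authors counted is not given in the sources used here. On this scale the level of NOP56 was 43050 ± 27406 in sh61A and 19888 ± 4109 in shcontrol, and the level of NOP58 was 0.868 ± 0.241 in sh61A and 1.27 ± 0.14 in shcontrol (SD, n = 3 each). The partner genes of one particle thus differed in counts by far more than the spread between libraries.

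By mean level per kilobase of span over all libraries, the order was SNHG20, NOP56, GAS5, SNHG1, SNHG12, SNHG5, SNHG8, SNHG6, ZFAS1 and NOP58. Library ranges of SNHG20 and NOP56 overlapped in both groups, as did those of SNHG1 and SNHG12. SNHG6 and ZFAS1 overlapped in shcontrol alone. The other neighbours in the order were separated in both groups on this scale. GAS5, the third, had a level of 2300 ± 154 in sh61A and 773 ± 103 in shcontrol, and the lowest NOP56 library was at 14160 in sh61A and 17373 in shcontrol. SNHG5, the next below SNHG12, had a level of 63.2 ± 5.6 in sh61A and 47.7 ± 7.9 in shcontrol (SD, n = 3 each). The order below SNHG5 depends on the division by span, which is 1.062 kilobases for SNHG8 and 37.899 kilobases for NOP58. By mean CPM over all libraries, without that division, ZFAS1 had 59.8, SNHG6 48.8, NOP58 40.4 and SNHG8 33.5.

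**Figure D2:**
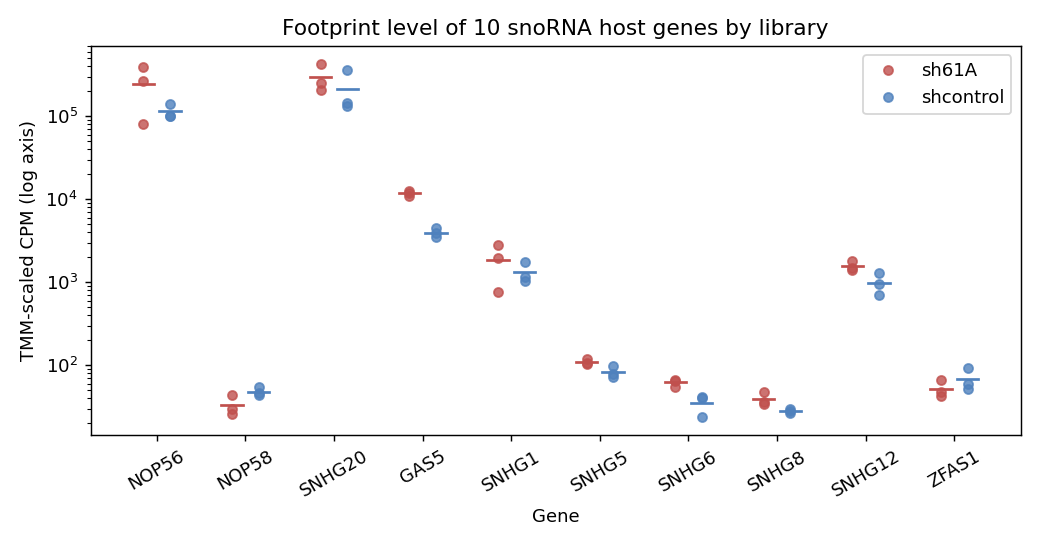
TMM-scaled CPM (vertical axis, log scale) of the 10 hosts (horizontal axis), 1 point per library and a bar at the mean of each group. The GAS5 points of the sh61A libraries lie between 10975 and 12541 CPM, above all shcontrol points, while the groups of NOP56, SNHG20, SNHG1 and ZFAS1 overlap.

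Footprints of the hosts were then compared between sh61A and shcontrol with edgeR's quasi-likelihood test across the 11653 features that passed a filter on low counts, which all 10 hosts passed. GAS5 was the one host called, at a Benjamini-Hochberg adjusted p under 0.05, and it was higher in sh61A. Of all tested features 3.12% were called and 1.48% were called higher. Positive log2 fold changes were found for 8 hosts, where 49.7% of all tested features had one, and negative ones for NOP58 and ZFAS1. The median was 0.48 over the 10 hosts and -0.0047 over all tested features. Before adjustment, 4 hosts (GAS5, SNHG6, SNHG12 and NOP56) had a p under 0.05, as did 16.3% of all tested features. In bulk libraries a change in the cells present and a change in RNA per cell cannot be told apart. A change in counts is not divided here into mRNA and translation, or into reads of the host RNA and of nested small RNAs.

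GAS5 is a noncoding host whose spliced RNA accumulates in growth-arrested cells and is degraded when it is translated, as a target of nonsense-mediated decay. It had 182233, 147986 and 135465 counts in the sh61A libraries, against 28607, 28614 and 40135 in the shcontrol libraries. As TMM-scaled CPM these were 11981, 12541 and 10975 in sh61A, against 3879, 3508 and 4552 in shcontrol. The groups were far apart, and every sh61A library was high. GAS5 averaged 11833 ± 793 CPM in sh61A and 3980 ± 529 CPM in shcontrol (SD, n = 3 each). Its counts were 2.97-fold higher in sh61A, or 1.57 ± 0.25 (SE) on the log2 scale, at an adjusted p of 0.00817 in edgeR's quasi-likelihood test. Which part of GAS5 these reads come from was not tested. It ranked 50 by p and 12 by mean CPM among the 11653 features. The call was lost when shcontrol library 2 was left out, where the log2 fold change was 1.49 (edgeR adjusted p = 0.0718). Without sh61A library 2 the call was kept narrowly, at a log2 fold change of 1.53 (edgeR adjusted p = 0.0498). Over all 17 alternatives the adjusted p of GAS5 ran from 2.64e-16 (DESeq2) to 0.0718.

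The counts of NOP56 and SNHG20 set how much of a library is left for other features, so GAS5 was also expressed as a share of the counts outside these genes. It then took 2.12%, 2.07% and 2.13% in the sh61A libraries, against 0.620%, 0.631% and 0.781% in the shcontrol libraries. The mean was 2.11% ± 0.03 in sh61A and 0.677% ± 0.090 in shcontrol (SD, n = 3 each). The 3 sh61A libraries were nearly equal in GAS5. They differed widely in NOP56 and in SNHG20 taken singly, but the joint share of these genes ran only from 46.2% to 51.6% in sh61A. The room left for other features was thus similar in these libraries, so their likeness in GAS5 cannot show whether GAS5 depends on it. With the 10 hosts left out of the scaling, the log2 fold change of GAS5 was 1.58 and its adjusted p 0.00809 in edgeR.

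**Figure D3:**
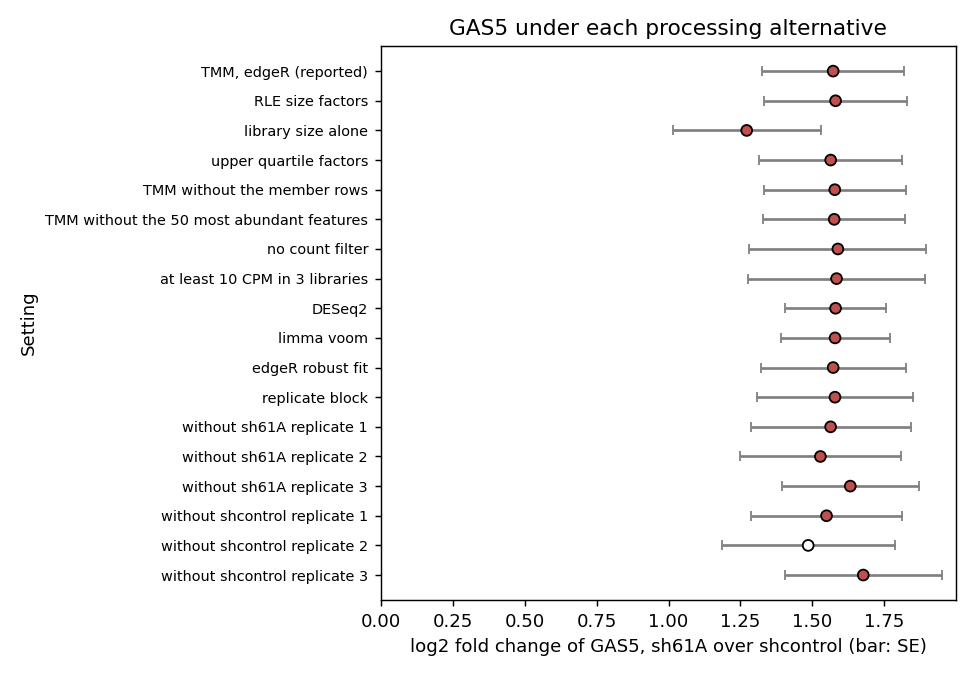
log2 fold change of GAS5, sh61A over shcontrol (horizontal axis; bars are the SE), as reported and under each of 17 processing alternatives (vertical axis). Filled points have an adjusted p under 0.05; the open point, at 1.49, is the fit without shcontrol library 2.

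Neither of the most abundant hosts passed the test. NOP56 averaged 248057 ± 157914 CPM in sh61A and 114594 ± 23675 CPM in shcontrol (SD, n = 3 each). The edgeR log2 fold change was 1.11 ± 0.48 (SE), at an adjusted p of 0.271. Its value depended on sh61A library 3: without that library the log2 fold change was 1.54 and the edgeR adjusted p 0.0375. Without sh61A library 1 the log2 fold change was 0.61 and the adjusted p 0.612. These p-values are the extremes of its 17 alternatives. SNHG20 averaged 297452 ± 119679 CPM in sh61A and 212908 ± 127447 CPM in shcontrol (SD, n = 3 each). The edgeR log2 fold change was 0.48 ± 0.45 (SE), at an adjusted p of 0.690. With 1 library left out at a time it ran from 0.12 to 1.09 and was called in none of these fits.

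SNHG12, which hosts mainly H/ACA snoRNAs, had 1415, 1813 and 1506 CPM in the sh61A libraries, against 946, 708 and 1297 CPM in the shcontrol libraries. The groups did not overlap, and the log2 fold change of 0.68 ± 0.26 (SE) had an adjusted p of 0.208 in edgeR. DESeq2 called it, at an adjusted p of 0.0287, the lowest of 17 alternatives that reached up to 0.563. SNHG6, the host of SNORD87, had 54.9, 65.1 and 66.9 CPM in the sh61A libraries, against 40.7, 23.5 and 41.8 CPM in the shcontrol libraries. Again the groups did not overlap, and the log2 fold change of 0.82 ± 0.27 (SE) had an adjusted p of 0.139 in edgeR. The ratio of GAS5 to SNHG12 counts was 8.47, 6.92 and 7.29 in the sh61A libraries, against 4.10, 4.95 and 3.51 in the shcontrol libraries. No scaling affects this ratio, and each sh61A value lay above all shcontrol values. It restates counts given above and is not separate support. The ratio of GAS5 to SNHG1 counts was more variable and only just separated, at 4.27, 6.45 and 14.4 in sh61A, against 3.76, 2.00 and 3.89 in shcontrol.

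SNHG5, the host of SNORD50A and SNORD50B, had 120, 105 and 102 CPM in the sh61A libraries, against 77.7, 71.8 and 97.8 CPM in the shcontrol libraries. SNHG8, the host of SNORA24, had 36.03, 47.7 and 33.6 CPM in the sh61A libraries, against 27.9, 29.5 and 26.3 CPM in the shcontrol libraries. Neither passed the test, with log2 fold changes of 0.40 ± 0.22 and 0.49 ± 0.26 (SE) and adjusted p of 0.414 and 0.389 in edgeR. SNHG1 had 2803, 1944 and 760 CPM in the sh61A libraries, against 1030, 1752 and 1169 CPM in the shcontrol libraries. Its groups overlapped, and the log2 fold change of 0.48 ± 0.39 (SE) had an adjusted p of 0.638 in edgeR.

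The 2 hosts with negative values were NOP58 and ZFAS1. NOP58 had 29.7, 25.8 and 43.2 CPM in the sh61A libraries, against 54.1, 44.1 and 45.6 CPM in the shcontrol libraries. The groups did not overlap, by a margin of less than 1 CPM between sh61A library 3 and shcontrol library 2, and the log2 fold change of -0.54 ± 0.27 (SE) had an adjusted p of 0.349 in edgeR. ZFAS1, the host of the SNORD12 group, had 66.3, 47.9 and 42.6 CPM in the sh61A libraries, against 91.3, 52.1 and 58.9 CPM in the shcontrol libraries. Its groups overlapped, and the log2 fold change of -0.37 ± 0.28 (SE) had an adjusted p of 0.608 in edgeR.

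**Figure D4:**
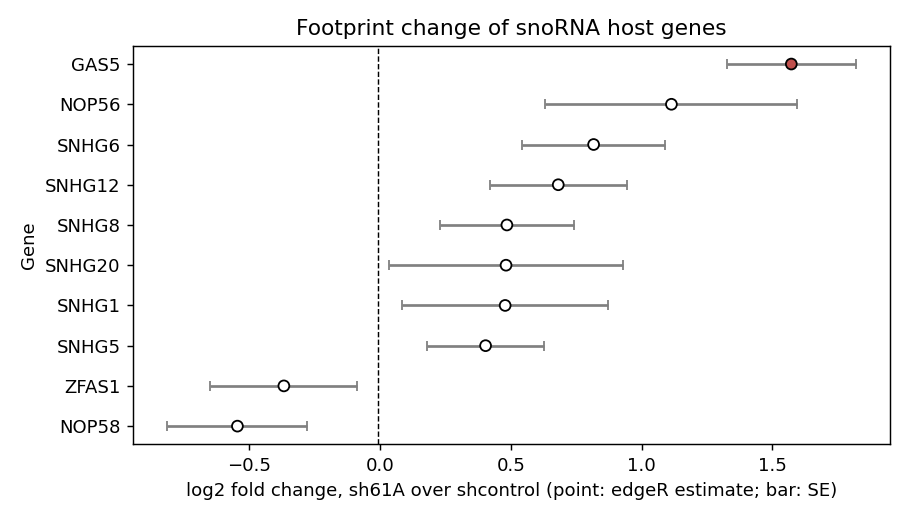
log2 fold change of each host, sh61A over shcontrol (horizontal axis), with bars for the SE and a dashed line at the median of all 11653 tested features (-0.0047). The filled point, GAS5 at 1.57, is the one with an adjusted p under 0.05, and the values of NOP58 and ZFAS1 are negative.

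How many hosts separate the groups depended on the scaling. With TMM, 5 hosts (GAS5, SNHG5, SNHG6, SNHG8 and SNHG12) were higher in every sh61A library than in any shcontrol library, where 12.2% of all tested features were, and NOP58 was lower, where 12.7% were. As plain shares of the library, GAS5 alone was higher, where 6.09% of all tested features were, and NOP58 and ZFAS1 were lower, where 19.1% were. Library size alone in place of TMM moved the median log2 fold change of all features to -0.30. GAS5 was called with it as well, at 1.27 (edgeR adjusted p = 0.0247).

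The hosts also differed in how much they varied within a group. The coefficient of variation of CPM was 63.7% in sh61A and 20.7% in shcontrol for NOP56, 40.2% in sh61A and 59.9% in shcontrol for SNHG20, and 55.9% in sh61A and 29.1% in shcontrol for SNHG1. For GAS5 it was 6.71% in sh61A and 13.3% in shcontrol. Among the other hosts, SNHG1 had the profile most like that of NOP56 over the 6 libraries. The root mean square difference of their log2 CPM, each centred on its own mean, was 0.30, and the next host, SNHG8, stood at 0.67. The ratio of NOP56 to SNHG1 counts was 141, 137 and 107 in the sh61A libraries, against 97.1, 81.02 and 87.1 in the shcontrol libraries. Both were lowest in sh61A library 3 and highest in sh61A library 1.

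Outside the hosts, 5898 features at a mean of 10 CPM or more were searched for such likeness. The closest to NOP56 were ENSG00000221740.1 and ENSG00000222414.1, with root mean square differences of 0.29 and 0.32 on the log2 scale. The closest to SNHG20 were ENSG00000251942.1 and ENSG00000183155.5_5, at 0.14 and 0.19. ENSG00000251942.1 had 265, 389 and 686 CPM in the sh61A libraries, against 509, 190 and 260 CPM in the shcontrol libraries. SNHG20 stood at 778, 650 and 631 times these values in sh61A, against 708, 694 and 566 times in shcontrol. Both features varied more than 3-fold. ENSG00000251942.1 was picked for the smallest difference from SNHG20 over these same libraries. A steady ratio follows from that search and is no separate result. What these 4 features encode is not stated in the files. The likeness is a description over 6 libraries, in each of which all features share its depth.

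**Figure D5:**
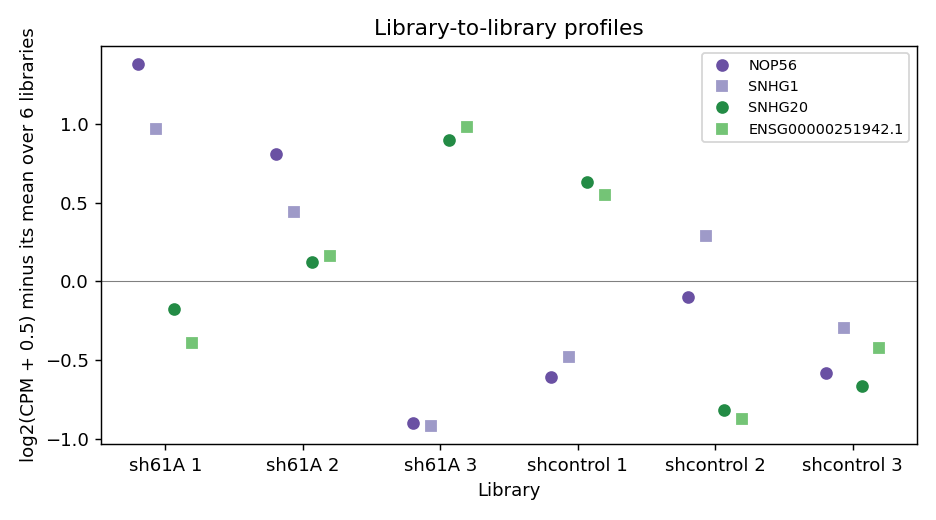
Level of NOP56, SNHG1, SNHG20 and ENSG00000251942.1 in each library (horizontal axis), as log2(CPM + 0.5) minus the feature's mean over the 6 libraries (vertical axis). NOP56 and SNHG1 are low in sh61A library 3, where SNHG20 and ENSG00000251942.1 are high. ENSG00000251942.1 was picked for its likeness to SNHG20 in these same libraries.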

How the data were processed

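Ribosome footprints were measured in 3 sh61A and 3 shcontrol libraries. The deposited table holds raw read counts per Ensembl gene ID, per library and without normalisation as far as the values show. The tools named per the submitters' processing notes are fastp and Bowtie 1.3.1, and the build is hg38. Per the labels' protocols, RNase I footprints were taken from monosomes, ribosomal RNA was depleted and fragments of 25 to 35 nucleotides were selected. Neither the counting tool nor the annotation or the use of strand is given in the sources used here. Most IDs end in a suffix that GENCODE uses for GRCh37, so coordinates are printed only for RefSeq sequences. The columns of the control group carry the name of a vector and were matched to shcontrol by assay and replicate number. A further 6 columns, for samples not described here, were not used, so hosts were not compared between footprints and RNA.

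Counts were tested with edgeR 4.0.16 (R 4.3.3; TMM, filterByExpr, glmQLFit and glmQLFTest, two-sided, Benjamini-Hochberg over all 11653 features). The test was also run on counts simulated from its own fit, which cannot show how well it suits these libraries. The SE is the log2 fold change divided by the square root of F. Alternatives used DESeq2 1.42.0, limma 3.58.1 voom, other scalings and filters, a replicate block and each library left out. All 10 hosts are named; likeness was searched for NOP56 and SNHG20, with the 2 closest features given. Lists of snoRNP proteins, other hosts, snoRNAs and cell markers were not analysed, since 0 IDs matched the RefSeq table. The hosts and lists were chosen with earlier results of these data known. In the library with the lowest total, 3 counts, the limit that 0 counts allow, are 4.43e-05%.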

Additional observations from a re-analysis of the deposited data

How the results depend on the processing

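All 10 hosts kept the sign of their log2 fold change under all 17 alternatives, and GAS5 was called under 16 of them, between 1.27 and 1.68 on the log2 scale. The number of hosts called was 2 with DESeq2 (GAS5 and SNHG12) and 0 to 2 with 1 library left out: 0 without shcontrol library 2, where 1543 features had an unadjusted p under 0.05 in edgeR, and 2 without sh61A library 3 (GAS5 and NOP56). The count of all features called, 364, was 735 without a count filter, 602 with at least 10 CPM in 3 libraries, 799 with DESeq2 (4519 adjusted p-values undefined) and 47 to 171 with 1 library left out, where fits have fewer samples. The replicate block gave 208 calls and a log2 fold change of 1.58 for GAS5 (edgeR adjusted p = 0.0285), and changed no call of a host. Deviations of same-numbered libraries correlated at -0.0039, -0.017 and 0.050, so the numbers were not taken as pairs. Library size alone gave 63 higher and 334 lower features, against 173 and 191 with TMM. With 1 library left out the summed share of the hosts ran from 49.5% to 52.2% in sh61A and from 32.3% to 38.3% in shcontrol. Outside NOP56 and SNHG20, the other hosts held 2.76% of the sh61A counts and 1.12% of the shcontrol counts, of which GAS5 was 2.11% in sh61A and 0.677% in shcontrol. Outside the 50 most abundant features, the remaining 5 hosts held 0.0941% in sh61A and 0.0822% in shcontrol. Some of these settings have smaller samples or changed denominators. The cause of the differences between settings was not tested.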
